A study of Homo sapiens with 16 samples.

Results

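Genomic imprinting marks a small set of genes so that the copy from a given parent is read and the other is kept silent. The mark is DNA methylation laid down in the egg or the sperm at control regions, and it is kept through cell division by DNMT1, UHRF1 and zinc finger proteins such as ZFP57 and ZNF445. Imprinted genes lie in clusters, often with a long non-coding RNA, and many act on growth of the embryo and the placenta. HAP1 is a near-haploid human line that grew out of a leukaemia line, so that most of its chromosomes are present as a single copy from an unstated parent.

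Described here are 40 known imprinted human genes, chosen by symbol from textbook knowledge, of 33121 entries in the deposited count table. All 40 symbols had an entry, and they lie on 14 chromosomes. By their usual allele use, 23 are read from the paternal copy, 7 from the maternal copy, and 10 vary by tissue, transcript or person. Parental origin cannot be read from these counts, and the labels do not give the ploidy of the cultures.

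Poly-A selected RNA of HAP1 cells was read as paired ends by DNA nanoball sequencing. The 16 libraries form 4 groups of 4. The SLC30A10 knockout carries a deletion of the gene of a manganese exporter, and its control, called the SLC30A10 control, is HAP1 of the genotype SLC30A10+/+. The second knockout carries a deletion of another gene and has a control of its own, called the second control, which is +/+ for that gene and bears the same HAP1 line identifier as the first. All cultures were grown in IMDM with fetal bovine serum. Each knockout is a single cell line by its identifier, so a deletion and the line that carries it cannot be told apart. The labels give no dates and no number of separate cultures, so the p-values measure the spread between these libraries, which may be technical.

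Totals were 16058856 to 16648151 counts per library, at which 3 counts correspond to 0.181 to 0.187 CPM (counts per 1000000, with libraries scaled by trimmed mean of M-values). Transcripts of SLC30A10 were too few to check the labels, with 11, 5, 8 and 3 counts in its knockout and 8, 6, 8 and 9 in its control. Of 12 blood markers, 9 to 11 per group had at most 3 counts in every library, among them PTPRC, SPI1, GATA1 and HBG1. KIT, the blood marker that was tested, had 14.5 ± 1.28 and 8.02 ± 1.88 CPM in the SLC30A10 knockout and its control, and 8.40 ± 0.634 and 12.8 ± 0.951 CPM in the second pair (SD, n = 4). Markers of other cell types also differed with the groups. In the SLC30A10 knockout 4 of 7 epithelial markers were tested and all 4 passed. Of these, 2 were higher and 2 lower, EPCAM among the latter (log2 -2.18). Of 8 fibroblast markers 3 were tested and 2 rose (THY1 1.23). Of 8 pluripotency markers 6 were tested and 3 passed, 1 higher and 2 lower. Of all tested genes, 41.4% passed in this comparison. In the second knockout 2 of the 4 tested epithelial markers fell (KRT8 log2 -1.35). Of 3 tested fibroblast markers 1 rose (THY1 2.33), and of 6 tested pluripotency markers 1 fell (LIN28A -3.89). Of all tested genes, 13.7% passed there. Summed CPM of this knockout and its control overlapped for the fibroblast list (38.8 to 44.9 against 39.1 to 44.0). It overlapped for the pluripotency list too (285 to 341 against 323 to 336), but not for the epithelial list (43.7 to 47.6 against 54.3 to 59.5). These sums and tests used entries with the plain symbol. For the pluripotency marker POU5F1, 82.8% of the counts lay in 6 further entries numbered after that symbol. With those added, POU5F1 was higher in the SLC30A10 knockout (log2 0.54, edgeR adjusted p = 4.5e-06) and not called in the second (0.16, adjusted p = 0.20). The part of these differences in the results below was not tested. In bulk RNA, fewer cells that express a gene and less RNA of it per cell cannot be told apart.

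The genes fell into 3 classes by their counts. A set of 26 passed the filter on low counts and was tested. A further 3 had some reads but did not pass it: KCNQ1OT1, RTL1 and DIRAS3. The remaining 11 had at most 3 counts in each of the 16 libraries, and a limit of 10 counts in place of 3 left the classes as they were. By allele use, 11 of the 23 paternally expressed genes, 5 of the 7 maternally expressed genes and 10 of the 10 genes with varied use were tested. Of the tested genes, 6 did not reach 10 counts in every library of all 4 groups: IGF2, SLC22A18, MEG3, MKRN3, L3MBTL1 and NNAT. Where such a gene passed through the group in which it was high, its difference is not independent of the filter.

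To show regulatory sequence of silent and expressed genes side by side, 4 RefSeq promoter windows (GRCh38.p14, 250 bases before to 50 after the start, 5′ to 3′ on the gene's strand) are printed. MEST and NAP1L5 had reads in every library, and SNURF and NDN had 0 counts in all 16. Capitals mark TGCCGC or its reverse complement GCGGCA, the hexamer that ZFP57 is known to bind when its CpG is methylated.
MEST, chr7:130485925-130486224, plus strand: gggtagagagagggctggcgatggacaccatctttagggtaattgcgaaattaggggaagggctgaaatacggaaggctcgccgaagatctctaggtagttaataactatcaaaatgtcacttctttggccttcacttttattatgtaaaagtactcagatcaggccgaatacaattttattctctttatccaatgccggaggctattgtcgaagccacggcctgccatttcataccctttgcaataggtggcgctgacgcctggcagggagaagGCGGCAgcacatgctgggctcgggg
NAP1L5, chr4:88697780-88698079, minus strand: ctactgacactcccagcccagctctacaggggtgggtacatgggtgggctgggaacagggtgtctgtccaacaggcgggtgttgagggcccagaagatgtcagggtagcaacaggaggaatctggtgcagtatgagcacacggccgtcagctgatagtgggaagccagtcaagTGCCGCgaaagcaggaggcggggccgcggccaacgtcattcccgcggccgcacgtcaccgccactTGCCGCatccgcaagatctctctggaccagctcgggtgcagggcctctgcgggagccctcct
SNURF, chr15:24954737-24955036, plus strand: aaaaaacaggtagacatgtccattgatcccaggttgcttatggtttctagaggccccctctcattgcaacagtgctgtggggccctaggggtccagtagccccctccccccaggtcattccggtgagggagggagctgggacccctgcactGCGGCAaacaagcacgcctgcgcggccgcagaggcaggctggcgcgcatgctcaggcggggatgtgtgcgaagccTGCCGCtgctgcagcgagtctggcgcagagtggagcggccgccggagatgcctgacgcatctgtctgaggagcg
NDN, chr15:23687256-23687555, minus strand: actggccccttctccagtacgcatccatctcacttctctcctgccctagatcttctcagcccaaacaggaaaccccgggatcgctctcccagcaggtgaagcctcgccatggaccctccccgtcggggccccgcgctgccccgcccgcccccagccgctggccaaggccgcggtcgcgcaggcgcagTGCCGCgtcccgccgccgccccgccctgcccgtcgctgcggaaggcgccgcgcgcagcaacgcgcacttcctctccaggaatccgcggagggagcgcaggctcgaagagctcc
The hexamer, searched on both strands, occurred in 11 of the 27 imprinted genes with a window in the table (40.7%) and in 16.7% of 35116 promoters of this length. The genes with it were MEG3, MEST, GRB10, HYMAI, SNURF, NDN, NAP1L5, BLCAP, L3MBTL1, DIRAS3 and IGF2R, so it occurred in genes with reads and in genes without. The median number of CG steps in a window was 19 in the 27 genes and 14 in all promoters. It was 20.5 in the 18 tested genes and 18 in the 7 genes at or under 3 counts. Each gene has 1 window here, and some windows lie well inside the gene. RB1 begins at chr13:48303751, but its window, with 0 CG steps, begins at 48476200. The windows of GNAS, SNRPN and FAM50B also lie far past the first base of the gene. A YY1 motif, CGCCATNTT, was found in UBE3A alone, 1 of the 27 genes (3.70%), against 3.19% of all promoters. The NRF1 motif TGCGCATG was found in 0 of the 27, against 2.18%. Such matches describe letters in a window and not binding, and methylation was not measured.

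Of the 11 genes at or under 3 counts, 7 lie on chromosomes 15 and 19. On chromosome 15, SNRPN and SNURF, which share a transcript that encodes a splicing protein, had 0 counts in all 16 libraries. NDN, which encodes the MAGE family protein necdin, was also at 0, and its relative MAGEL2 had a single count in 1 SLC30A10 knockout library. Beside them, IPW had 5 counts over all 16 libraries and the 29 entries of the SNORD116 cluster had 0, although small RNAs without a poly-A tail are not captured here. In the same region MKRN3 was read at a low level, and UBE3A, a ubiquitin ligase that is imprinted in neurons, had 3508 to 4260 counts in every library. Of the 6 listed genes of the region, 4 thus had entries at or near 0 and 2 did not.

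On chromosome 19, the zinc finger gene PEG3 had 1 count over all libraries, and ZIM2, which shares its first exons, and NLRP2, an oocyte protein of the NOD-like receptor family, had 0. HYMAI, the non-coding partner of PLAGL1, had 3 counts in all, GNAS-AS1 had 2, and FAM50B had 1. A count of 0 in a library allows a level of up to 0.181 to 0.187 CPM, counting error only. Shared exons limit this reading for some genes, since the counting of reads that fit 2 genes is not given in the sources used here. By GENCODE models, 69.3% of SNURF's exon bases, 33.6% of SNRPN's, 42.0% of ZIM2's and 12.9% of PEG3's overlap exons of another gene. NDN, MAGEL2 and FAM50B share none.

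PHLDA2, which limits growth of the placenta, showed that an entry at 0 need not mean an absent RNA. The table holds 3103 numbered further copies of symbols, and the entry with the plain symbol PHLDA2 was at 0 while its numbered copy held 546 counts. That copy had 64, 50, 98 and 59 counts in the SLC30A10 knockout and 24, 34, 26 and 37 in its control. It had 21, 22, 24 and 16 counts in the second knockout and 22, 13, 21 and 15 in its control. The SLC30A10 knockout lay above each of the other groups without overlap. The copy rose by a log2 fold change of 1.18 ± 0.20 (SE, 4 libraries a group, edgeR adjusted p = 2.4e-05) in that knockout and differed by 0.24 ± 0.28 (adjusted p = 0.65) in the second.

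Copies touched 3 other genes of the set. CDKN1C, the cyclin-dependent kinase inhibitor p57, had 37.9% of its counts in a numbered copy, and SLC22A18, a membrane transporter, had 57.5%. All 10 entries of NLRP2 were at 0. With copies summed, 27 genes were tested in place of 26, PHLDA2 being the one gained. What sets plain and numbered entries apart is not given in the sources used here.

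**Figure D1:**
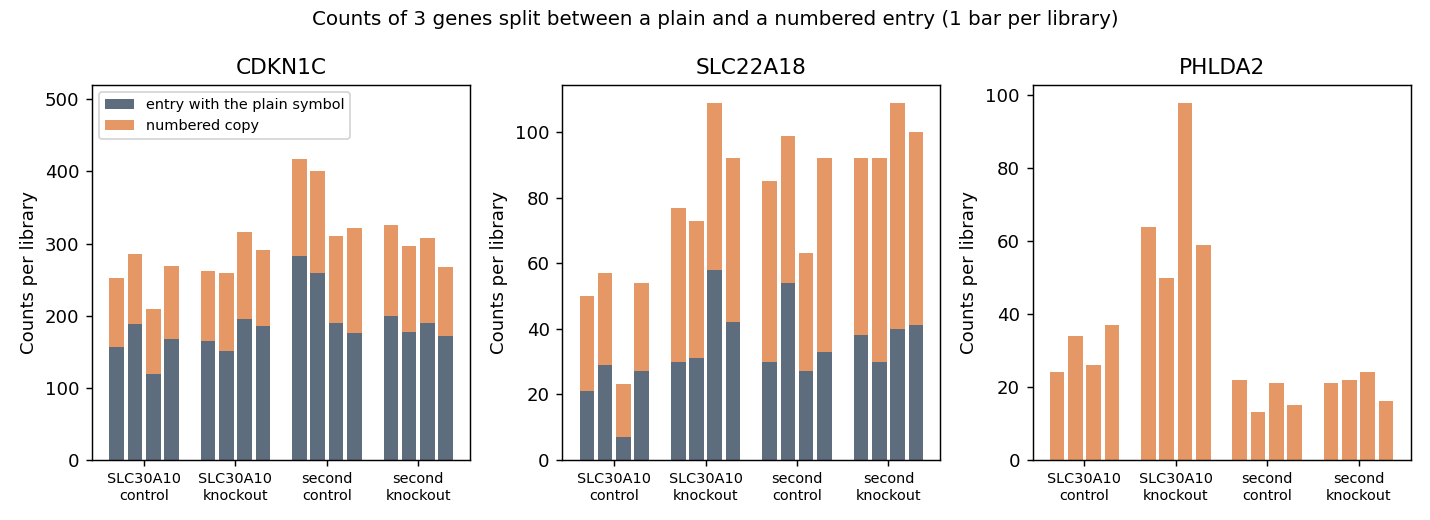
Counts per library (y axis) of CDKN1C, SLC22A18 and PHLDA2, with 1 bar per library in 4 groups, split into the entry with the plain symbol (grey) and the numbered copy (orange). PHLDA2 has counts only in its copy, highest in the SLC30A10 knockout (50 to 98 counts).

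Among the expressed genes, levels per exon length covered a wide range. PEG10, a retrotransposon-derived gene needed for the placenta, was the highest at 436 CPM per kb of exon (mean of 16 libraries) and ranked 33 of 13310 tested genes with a known length. GNAS, which encodes the stimulatory G protein alpha subunit, followed at 112 CPM per kb, rank 266. RB1 (23.5), NAP1L5 (19.1), UBE3A (18.3), GRB10 (15.9) and COPG2 (10.4 CPM per kb) came next. At the lower end lay MKRN3 (0.114), IGF2 (0.109), RTL1 (0.0747), L3MBTL1 (0.0711), MEG3 (0.0370) and KCNQ1OT1 (0.00344 CPM per kb). Length here is that of all GENCODE exons of a gene, merged over its transcripts, and it sets this order in part. In plain CPM, MEG3 lay above IGF2 (0.858 against 0.763, mean of 16 libraries). H19, the maternal non-coding RNA beside IGF2, stood at 5.62 CPM per kb while IGF2, a fetal growth factor, was near the floor. The receptor IGF2R, which clears IGF2, stood at 8.36 CPM per kb.

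**Figure D2:**
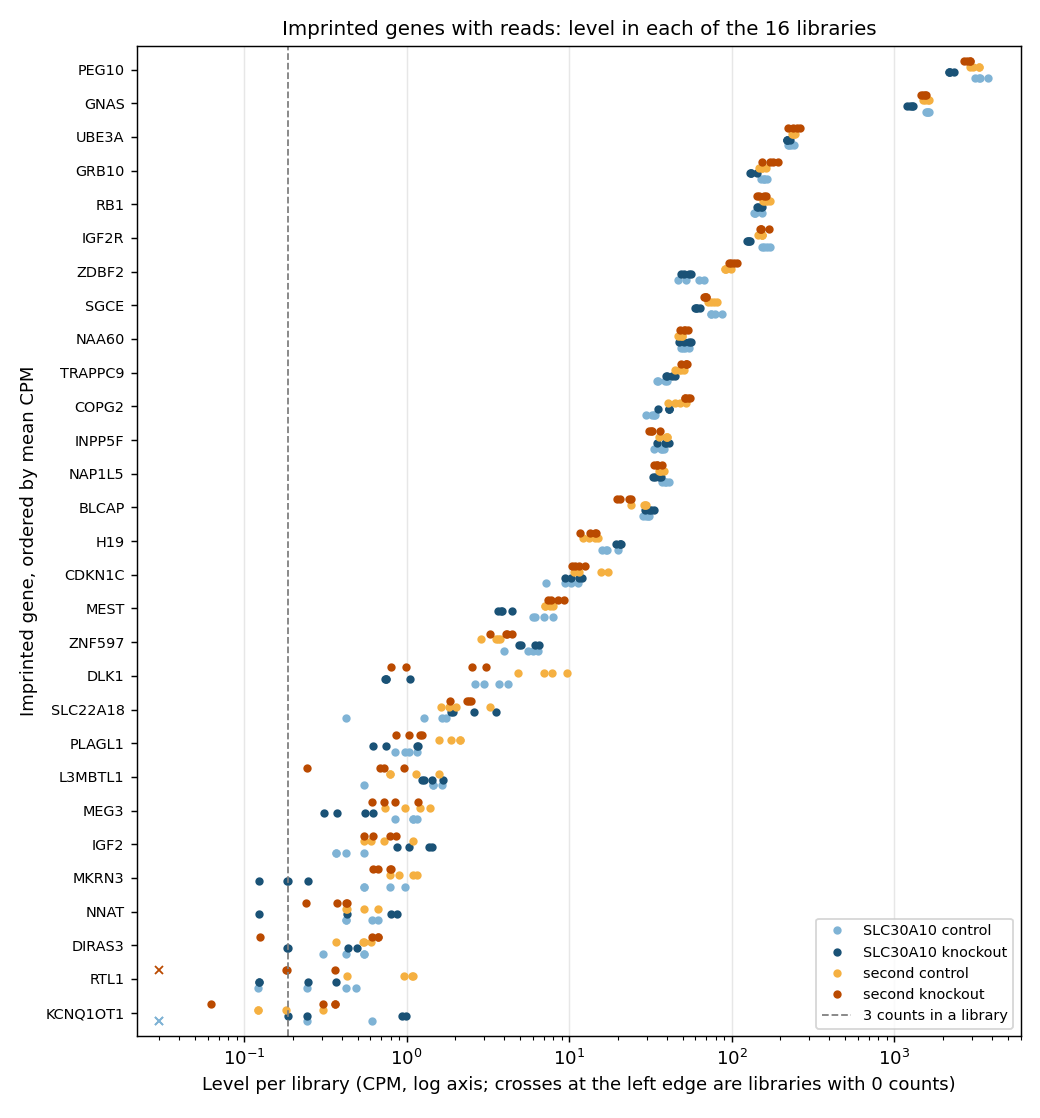
Level of the 26 tested imprinted genes and the 3 low ones, in CPM on a log axis (x), 1 point per library, coloured by group, with genes ordered by mean CPM. The dashed line marks 3 counts in a library. PEG10 is highest in every library, and the genes at the bottom lie near 1 CPM or below.

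Between the SLC30A10 knockout and its control, 15 of the 26 tested genes passed the edgeR threshold, 5 higher and 10 lower in the knockout. That is 57.7%, where 41.4% of all 15569 tested genes were called (21.2% higher and 20.2% lower). The median absolute log2 difference of the imprinted genes was 0.19, against 0.16 for all tested genes, and their median signed difference was -0.01. Groups did not overlap for 13 of the 26 genes, all 13 among the 15 called, where 38.3% of all tested genes had groups that did not overlap. At least 1.5-fold changes past the threshold were found in 7 of the 26, against 10.4% of all tested genes. The threshold throughout is an adjusted p under 0.05 over all tested genes.

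DLK1, PEG10, SGCE, MEST, MKRN3 and NAP1L5, all read from the paternal copy, were lower in this knockout. The other tested paternal genes went otherwise: IGF2 rose, and PLAGL1, ZDBF2, NNAT and L3MBTL1 were not called. DLK1, a non-canonical Notch ligand at chr14:100726892-100738224, had 17, 12, 12 and 12 counts in the knockout and 69, 61, 43 and 49 in its control. The groups lay far apart, and DLK1 fell 4.09-fold (log2 -2.03 ± 0.34, adjusted p = 2.5e-05). MEG3, the maternal non-coding RNA of that cluster, had 6, 5, 9 and 10 counts against 18, 19, 14 and 18. It fell 2.24-fold (log2 -1.16 ± 0.30, adjusted p = 0.0025), again without overlap, so genes of both parental classes were lower there. RTL1, a placental protein of retrotransposon origin in the same cluster, was outside the filter with 2, 2, 6 and 4 counts against 2, 7, 8 and 4, and those groups overlapped (exact permutation p = 0.4). The 10 nearest tested genes that are no members, 5 on each side, had a median log2 difference of -0.08, and 5 of them were called, 2 higher and 3 lower.

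PEG10 had 35236, 37364, 35688 and 35701 counts in the SLC30A10 knockout, against 55715, 54843, 61909 and 51752 in its control. All knockout libraries lay below all control libraries, at 2231 ± 62.9 against 3413 ± 261 CPM (SD, n = 4 each), and PEG10 fell 1.53-fold (log2 -0.61 ± 0.05, adjusted p = 3.0e-11). SGCE, the epsilon-sarcoglycan gene that shares its start region with PEG10 on the opposite strand, had 972, 987, 974 and 1029 counts against 1305, 1232, 1442 and 1222. It fell by less, 1.29-fold (log2 -0.37 ± 0.05, adjusted p = 2.0e-06), also without overlap. Exons shared by the pair cover 3.27% of PEG10 and 1.05% of SGCE. The 10 nearest tested genes outside the set had a median log2 difference of -0.17, and 5 of the 7 called among them were lower.

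MEST, a paternally expressed hydrolase-like gene at chr7:130486175-130506465, had 61, 72, 60 and 62 counts in the knockout and 131, 102, 98 and 115 in the control. It fell 1.72-fold without overlap (log2 -0.78 ± 0.12, adjusted p = 7.3e-06). COPG2, which encodes a vesicle coat subunit and ends beside MEST on the other strand, had 666, 665, 677 and 565 counts against 532, 559, 486 and 545. The neighbours thus moved in opposite directions, since COPG2 rose 1.23-fold (log2 0.30 ± 0.07, adjusted p = 8.5e-04) without overlap. Exons of other genes cover 27.4% of MEST and 11.3% of COPG2, and whether the counting used strand is not given in the sources used here. MKRN3, the makorin ubiquitin ligase on chromosome 15, had 2, 3, 3 and 4 counts against 13, 9, 16 and 9. Its groups did not overlap (log2 -1.90 ± 0.36, adjusted p = 1.2e-04), but each rests on few reads.

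GNAS, IGF2R and GRB10, well expressed genes with varied allele use, fell by up to 1.28-fold, close to the 1.29-fold of SGCE. GNAS had 19288, 20734, 21298 and 20167 counts against 26185, 26795, 27089 and 25876, and fell 1.28-fold (log2 -0.35 ± 0.04, adjusted p = 8.5e-09). IGF2R had 2027, 2010, 2115 and 2055 counts against 2530, 2825, 2587 and 2723, also 1.28-fold lower (log2 -0.35 ± 0.04, adjusted p = 3.2e-07). GRB10, an adaptor that dampens insulin receptor signalling, had 2104, 2127, 2344 and 2130 counts against 2494, 2593, 2607 and 2727 (log2 -0.23 ± 0.05, adjusted p = 8.7e-04). In all 3 genes the knockout lay below the control in every library. NAP1L5, a nucleosome assembly protein read from the paternal copy, fell 1.12-fold (log2 -0.17 ± 0.06, adjusted p = 0.015), a call lost without knockout replicate 3 or control replicate 2.

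The genes that rose were led by those of chromosome 11. IGF2 had 14, 22, 17 and 23 counts in the knockout and 6, 9, 7 and 6 in its control. It rose 2.73-fold without overlap (log2 1.45 ± 0.29, adjusted p = 2.0e-04), from counts that reached 10 in every library of the knockout alone. Exons of other GENCODE models overlap 75.0% of IGF2. The largest overlap, 73.7%, was with a second model that is also named IGF2, followed by the read-through gene INS-IGF2. The INS-IGF2 entry had 0 counts. SLC22A18 had 30, 31, 58 and 42 counts against 21, 29, 7 and 27 (log2 0.96 ± 0.28, adjusted p = 0.0079). Its groups did not overlap, and without knockout replicate 3 the adjusted p was 0.056. Its numbered copy, counted apart, rose alike (log2 0.95 ± 0.19, adjusted p = 2.0e-04).

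H19 had 330, 338, 334 and 311 counts against 283, 279, 326 and 261, and its groups overlapped (log2 0.22 ± 0.08, adjusted p = 0.031). The call of H19 was lost in 6 of the 8 fits that left out 1 library of the comparison, with an adjusted p of up to 0.12. TRAPPC9, a subunit of a vesicle tethering complex, had overlapping groups as well (log2 0.17 ± 0.06, adjusted p = 0.025) and was lost in 4 of 8 such fits. The 11 tested genes not called in this comparison were CDKN1C, PLAGL1, UBE3A, ZDBF2, NNAT, BLCAP, L3MBTL1, ZNF597, NAA60, INPP5F and RB1, with log2 differences from -0.12 to 0.17.

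**Figure D3:**
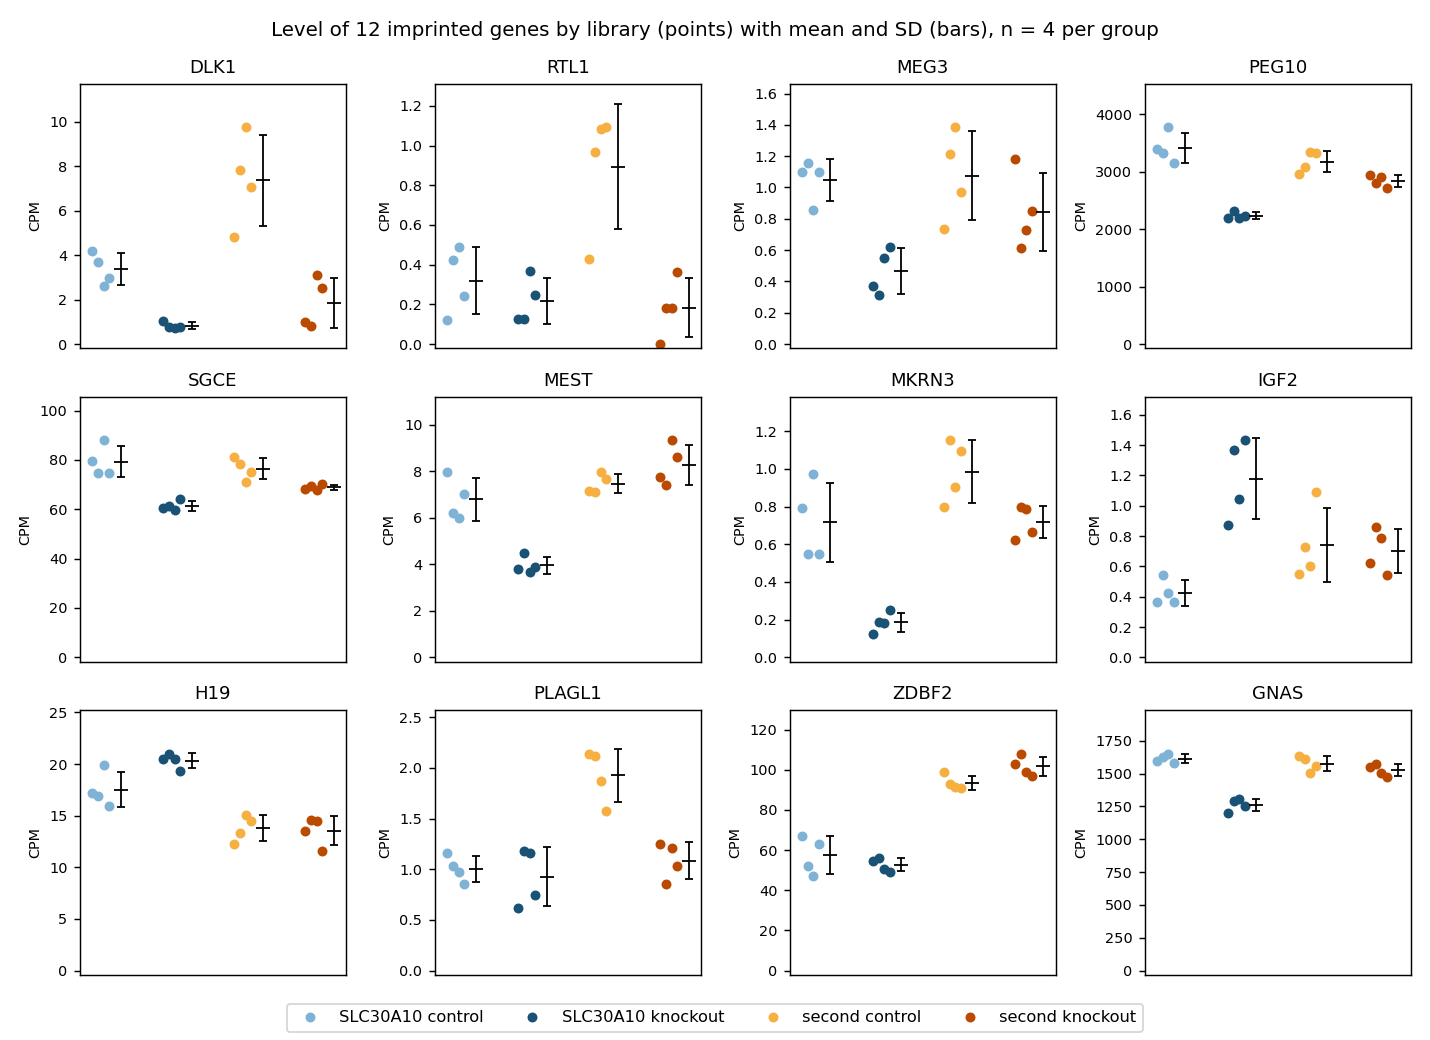
Level in CPM (y axis, 0 included) of 12 imprinted genes, 1 point per library with the mean and SD of each group (n = 4). DLK1 lies lower in both knockouts than in their controls, while PEG10, MEST, MKRN3 and GNAS are lowest in the SLC30A10 knockout and ZDBF2 differs between the control sets.

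Between the second knockout and its control, 7 of the 26 tested genes passed, 1 higher and 6 lower. That is 26.9%, where 13.7% of all tested genes were called (6.67% higher and 7.03% lower). The median absolute log2 difference was 0.16 in the imprinted genes and 0.09 in all tested genes. Groups did not overlap for 4 of the 26 genes, all among the 7 called, against 16.3% of all tested genes. DLK1 and PLAGL1, 2 of the 26, changed by at least 1.5-fold, against 4.27% of all tested genes.

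DLK1 had 16, 13, 51 and 42 counts in the second knockout and 79, 129, 162 and 116 in its control. It fell 3.94-fold without overlap (log2 -1.98 ± 0.25, adjusted p = 1.1e-06), and the knockout libraries differed among themselves, with replicates 3 and 4 above replicates 1 and 2. MEG3 had 19, 10, 12 and 14 counts against 12, 20, 23 and 16, and its groups overlapped (log2 -0.35 ± 0.26, adjusted p = 0.42). RTL1 had 0, 3, 3 and 6 counts against 7, 16, 18 and 18. Its groups did not overlap (0.182 ± 0.148 against 0.894 ± 0.316 CPM), and the exact permutation test gave p = 0.0286, the smallest that 4 against 4 allows, or 0.257 adjusted over 9 such tests. Among the 10 nearest tested genes outside the set, the count called by edgeR beside DLK1 was 0, and their median log2 difference was -0.01.

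PLAGL1, a zinc finger transcription factor read from the paternal copy, had 20, 14, 20 and 17 counts in the second knockout and 35, 35, 31 and 26 in its control. It fell 1.77-fold without overlap (log2 -0.82 ± 0.21, adjusted p = 0.0068). Against the SLC30A10 control, with 19, 17, 16 and 14 counts, PLAGL1 of the second knockout was not lower (log2 0.11, adjusted p = 0.73). BLCAP, a small membrane protein gene that overlaps NNAT, had 316, 335, 384 and 398 counts against 393, 484, 494 and 476 (log2 -0.36 ± 0.07, adjusted p = 0.0010). INPP5F, an inositol phosphatase, had 578, 524, 537 and 513 counts against 657, 659, 654 and 591 (log2 -0.24 ± 0.06, adjusted p = 0.0096). The groups of BLCAP and of INPP5F overlapped in CPM.

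PEG10 had 47113, 45672, 48108 and 44802 counts in the second knockout against 48244, 50835, 55456 and 54653, a 1.12-fold fall (log2 -0.16 ± 0.05, adjusted p = 0.019) without overlap. SGCE had 1096, 1130, 1119 and 1157 counts against 1328, 1292, 1182 and 1237 (log2 -0.15 ± 0.05, adjusted p = 0.048). GRB10 was higher, with 2757, 2955, 2533 and 3210 counts against 2522, 2682, 2444 and 2518, and its groups overlapped (log2 0.18 ± 0.05, adjusted p = 0.019). These calls were weak: of the 8 fits without 1 library, 4 lost PEG10, 7 lost SGCE and 3 lost GRB10. SGCE was also lost in 8 of the 11 other alternatives, with an adjusted p of up to 0.16 over all of them. COPG2 lay at the threshold (log2 0.19 ± 0.06, adjusted p = 0.05002) and was called higher in 10 of those 11. Of the 7 genes called here, 4 (57.1%) were also called in the SLC30A10 knockout, which is 26.7% of its 15. Over all tested genes those shares were 57.1% and 18.9%, so the overlap as a share of the second knockout's calls was that of the background. DLK1, PEG10 and, with that limit, SGCE fell in both, while GRB10 went in opposite directions.

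**Figure D4:**
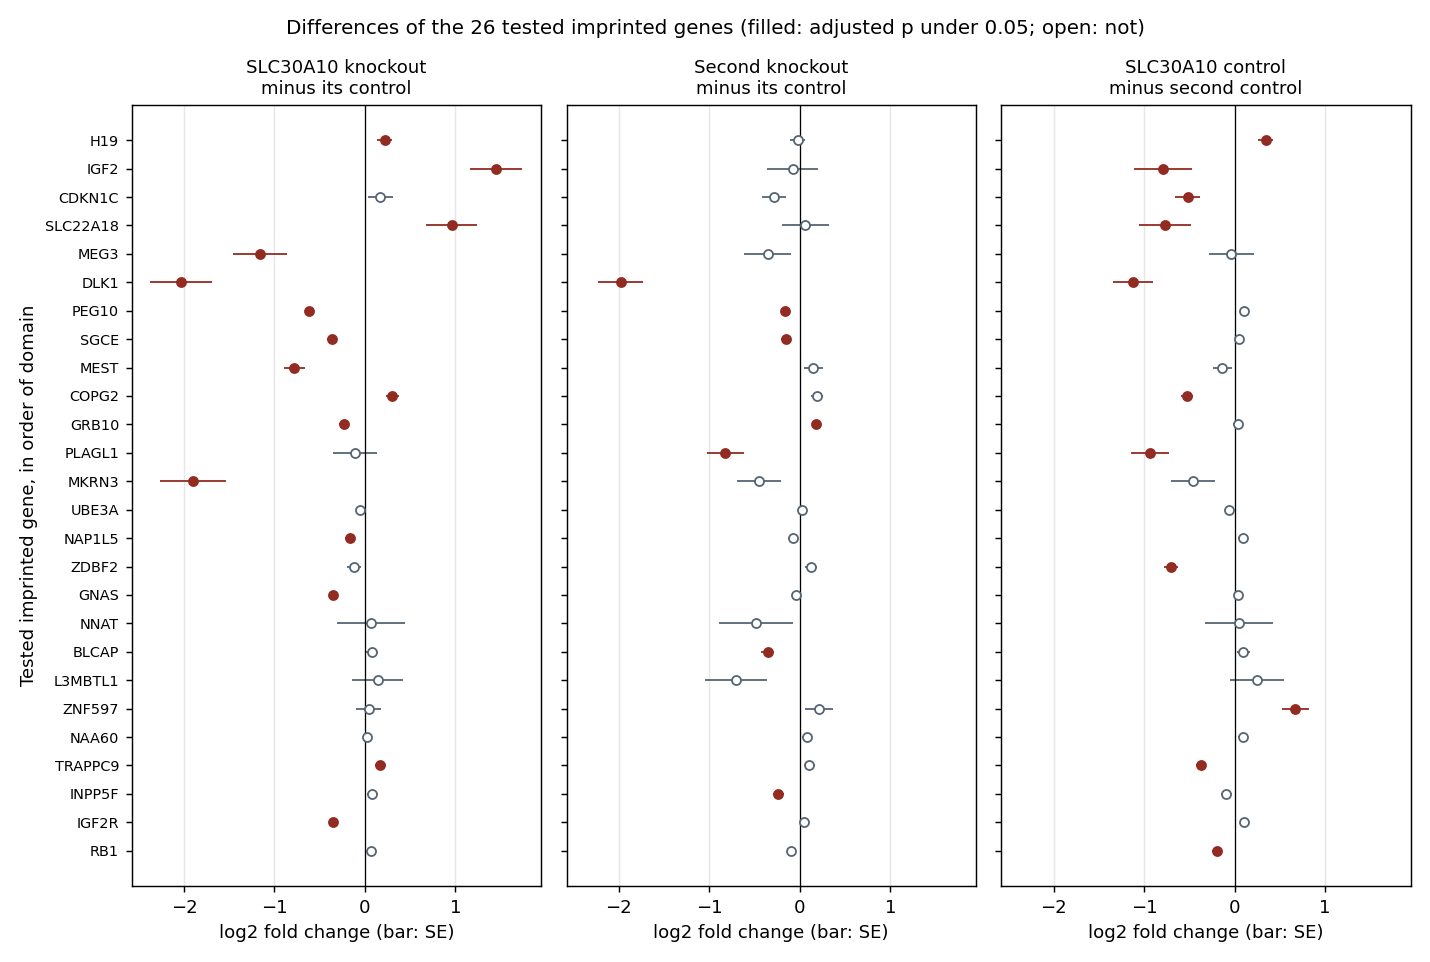
Log2 fold change (x axis) with its SE for the 26 tested imprinted genes (y axis, by cluster) in 3 comparisons, filled where the adjusted p was under 0.05. DLK1 stands at -2.03 and -1.98 in the knockouts and at -1.12 between the control sets.

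The effects of both knockouts were compared directly by an interaction test. It called 10 of the 26 genes (38.5%), 3 with the SLC30A10 effect higher and 7 lower, where 31.3% of all tested genes were called (16.7% higher and 14.6% lower). With numbered copies summed it called 13 of 27, 6 higher and 7 lower, where 4822 of all 15304 tested genes were called. The calls gained were CDKN1C (0.43 ± 0.14, adjusted p = 0.021), SLC22A18 (0.72 ± 0.25, adjusted p = 0.028) and PHLDA2 (0.94 ± 0.35, adjusted p = 0.039). PEG10 fell by more in the SLC30A10 knockout (difference of log2 effects -0.45 ± 0.07, adjusted p = 4.8e-06), as did SGCE (-0.22 ± 0.07, adjusted p = 0.024), although not without replicate 3 of either control set (adjusted p of up to 0.054). MEST (-0.93 ± 0.16, adjusted p = 5.1e-05), GNAS (-0.31 ± 0.05, adjusted p = 3.2e-05) and IGF2R (-0.39 ± 0.06, adjusted p = 1.8e-05) fell in that knockout and not detectably in the second. MKRN3 differed too (-1.45 ± 0.45, adjusted p = 0.017), although not without SLC30A10 control replicate 3 (adjusted p = 0.052) or by DESeq2 (adjusted p = 0.060). DLK1 showed no detectable difference between the effects (-0.05 ± 0.41, adjusted p = 0.94), an SE that leaves room for a sizeable one. The difference for MEG3 was -0.81 ± 0.40 (adjusted p = 0.13).

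Both control sets are HAP1 cells under 1 identifier, yet 11 of the 26 genes differed between them (42.3%), 2 higher and 9 lower in the SLC30A10 control. Of all tested genes, 39.3% were called (18.5% higher and 20.8% lower), so the share among imprinted genes was near that of the background. This comparison shares its control libraries with both knockout comparisons, and its values stand beside them. ZDBF2, a paternally expressed zinc finger gene, had 1104, 862, 771 and 1036 counts in the SLC30A10 control and 1613, 1532, 1517 and 1498 in the second control. It was 1.63-fold lower without overlap (log2 -0.70 ± 0.07, adjusted p = 6.7e-08), while each knockout lay near its own control, with 789 to 905 and 1602 to 1762 counts. ZNF597, a maternally expressed zinc finger gene, was higher in the SLC30A10 control (log2 0.67 ± 0.15, adjusted p = 9.5e-04), with 65 to 106 counts against 47 to 62.

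DLK1 was 2.18-fold lower in the SLC30A10 control than in the second (log2 -1.12 ± 0.22, adjusted p = 2.9e-04). PLAGL1 (log2 -0.93 ± 0.21), COPG2 (-0.53 ± 0.07), TRAPPC9 (-0.37 ± 0.06) and RB1 (-0.20 ± 0.05) were lower in the SLC30A10 control without overlap, and CDKN1C (-0.52 ± 0.13) with overlap. H19 was higher there (log2 0.34 ± 0.08, adjusted p = 0.0021). IGF2 (log2 -0.79 ± 0.32, adjusted p = 0.049) and SLC22A18 (-0.77 ± 0.29, adjusted p = 0.036) were lower, calls that leaving out single libraries ended in 5 and 3 of 8 fits. The IGF2 call was also lost in 6 of the 7 other alternatives that could test it, DESeq2 among them, with an adjusted p of up to 0.25 over all of them. The SLC22A18 call was kept in its 8 other alternatives. With copies summed, SLC22A18 differed by log2 -0.87 ± 0.19 (edgeR adjusted p = 6.7e-04). UBE3A, NAA60, NNAT and L3MBTL1 were called in none of the 3 comparisons between groups or in the interaction test.

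Which control was used decided some calls. Of the 15 genes called in the SLC30A10 knockout, 11 were called in the same direction against its own control, the second control and both pooled. These were DLK1, MEG3, MKRN3, MEST, PEG10, SGCE, GNAS, IGF2R and GRB10, lower, and IGF2 and H19, higher. COPG2 and TRAPPC9 were higher than their own control and lower than the second control (log2 -0.23 and -0.20, adjusted p = 0.0071 and 0.0075). NAP1L5 (adjusted p = 0.25) and SLC22A18 (adjusted p = 0.58) did not pass against the second control. For the second knockout, 5 of 7 were called against all 3 choices: DLK1, PEG10, SGCE, BLCAP and GRB10.

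Genes that set or keep imprints were given as a list of 33, of which 23 were tested. In the SLC30A10 knockout 13 passed (56.5%, against 41.4% of all tested genes), 1 higher and 12 lower (against 20.2% lower), with a median log2 difference of -0.14 against -0.00479 over all tested genes. CTCFL, the germline paralogue of the insulator protein CTCF, had 304, 349, 320 and 248 counts in this knockout and 65, 56, 23 and 39 in its control. It rose without overlap (log2 2.76 ± 0.20, adjusted p = 8.4e-12), but the second control had 222 to 326 counts, so it was the SLC30A10 control that lay low. EZH2, the Polycomb methyltransferase (log2 -0.45 ± 0.04), the 5-methylcytosine oxidases TET2 (-0.34 ± 0.06) and TET3 (-0.27 ± 0.05), and CTCF (-0.23 ± 0.04) fell by less. In the second knockout 1 of the 23 passed, ZNF445 (log2 0.15 ± 0.05, adjusted p = 0.039), where 13.7% of all tested genes did. Between the control sets 14 of the same 23 passed (60.9%, against 39.3%). ZFP57 had 0 counts in all 16 libraries.

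A list of 53 further imprinted or near-lying genes had 49 entries and 24 tested genes. In the SLC30A10 knockout 13 of these passed, 7 higher and 6 lower (54.2%, against 41.4% of all tested genes). In the second knockout 6 passed, 4 higher and 2 lower (25.0%, against 13.7%). Between the control sets 15 of the 24 passed (62.5%, against 39.3%). GABRA5, a GABA receptor subunit gene in the chromosome 15 region, had 0 counts in all 8 knockout libraries, with 103, 96, 115 and 88 counts in the SLC30A10 control and 68, 64, 64 and 75 in the second. Set against a floor of 3 counts per library, the fall was at least 32.8-fold for the SLC30A10 knockout and at least 22.01-fold for the second. LRRTM1, a synaptic adhesion gene, fell in the SLC30A10 knockout (log2 -1.55 ± 0.20), where HERC3, which hosts NAP1L5 in an intron, rose (0.90 ± 0.10). HERC3 thus went the other way from NAP1L5.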

How the data were processed

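Poly-A RNA of 16 HAP1 libraries was counted by the authors. The deposited counts are whole-number read counts per gene symbol. The submitters' processing notes name HISAT2, featureCounts, DESeq2 and the builds hg38 and GRCh38, without roles or settings. The annotation and the use of strand are not given in the sources used here. The deposited normalized signal equals the count divided by a constant per library, within 5.09e-06, and served as an alternative scaling. The gene deleted in the second knockout is not reported here.

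Tests were run in edgeR 4.0.16 (R 4.3.3), whose expression filter (minimum count 10, minimum total 15) kept 15569 entries. Scaling was by trimmed mean of M-values, and all 16 libraries were fitted with 4 group means. Quasi-likelihood F tests were adjusted by the Benjamini-Hochberg method over all tested entries, at a threshold of 0.05. The SE is the log2 fold change divided by the square root of F. Groups overlap where their CPM ranges do. Genes outside the filter that reached 10 counts in any library were compared by two-sided exact permutation tests of mean CPM. Floors of 3 counts cover counting error only, since no molecular identifiers are stated. Replicate pairs differed by 1.601 to 6.428 in chi-square per degree of freedom, above sampling noise. edgeR put the common biological coefficient of variation at 0.0497. The procedure was tested on simulated counts.

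The imprinted genes, their allele use and the other lists were chosen with earlier results of these data known. Every gene of the set is named, those called are given values, and of each other list up to 5 called genes per comparison with the smallest adjusted p were eligible. Positions and promoters are from RefSeq GRCh38.p14, which had a promoter for 27 of the 40, and exon lengths and overlaps from GENCODE. Alternatives were other size factors, library totals, DESeq2 1.42.0, other filters, a replicate block, fits of only the groups compared, pooled controls, and leaving out each library. The deposited size factors, summed copies and the other control set were added after seeing the data.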

Additional observations from a re-analysis of the deposited data

Results flagged for a closer look

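Both knockouts' effects differed for 10 genes by the edgeR interaction test, given as the SLC30A10 effect minus the second effect on the log2 scale. The difference was 1.53 for IGF2, 0.43 for BLCAP and 0.32 for INPP5F. It was -1.45 for MKRN3, -0.93 for MEST, -0.45 for PEG10, -0.42 for GRB10, -0.39 for IGF2R, -0.31 for GNAS and -0.22 for SGCE. GRB10 moved in opposite directions in the knockouts, past the threshold in each.

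Of 104 groups of 4 libraries examined, 7 held a library apart from the other three by more than the Dixon 95% limit allows, where chance gives about 5.2 at 1 in 20. DLK1 stood at 1.06 CPM in SLC30A10 knockout replicate 1, against 0.736 to 0.747 in the others. COPG2 stood at 35.2 CPM in SLC30A10 knockout replicate 4, against 41.3 to 41.5. GRB10 stood at 143.7 CPM in SLC30A10 knockout replicate 3, against 130.8 to 132.6. BLCAP stood at 24.0 CPM in second control replicate 1, against 28.9 to 29.8, and TRAPPC9 at 48.8 CPM in second knockout replicate 1, against 52.4 to 53.0. IGF2R stood at 144 CPM in second control replicate 1, against 153 to 155, and at 170.3 CPM in second knockout replicate 4, against 149 to 152.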

How the results depend on the processing

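With a fold change of at least 1.5 required, 7 genes were called in the SLC30A10 knockout, 2 in the second knockout, 3 in the difference of effects and 6 between the control sets, of 26 tested in each. Over all tested genes those shares were 10.4%, 4.27%, 11.4% and 5.64%. In the second knockout the count rose from 7 to 11 with both control sets pooled and to 14 against the other control set. Over all 15569 tested genes the calls of this knockout rose as well, from 2132 to 5341 and to 7445. The cause was not tested. Under the other alternatives every count stayed within 1.5 times its value. Leaving out each library in turn gave 12 to 15, 5 to 8, 10 to 13 and 9 to 12 calls in the same order. DESeq2 gave 15, 7, 9 and 10 calls, of which 6 of the 7 in the second knockout were shared with edgeR: SGCE was lost and COPG2 gained.

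Against the other control set, an alternative added after seeing the data, the SLC30A10 knockout differed by -0.35 for CDKN1C, -0.23 for COPG2, -0.20 for TRAPPC9 and -0.13 for RB1 on the log2 scale, each turned in sign. For the second knockout PLAGL1 (0.11) and ZNF597 (-0.46) turned. A further 7 values that were called against neither control set turned too: INPP5F in the SLC30A10 knockout, and IGF2 (-0.08 to 0.71), CDKN1C, MKRN3, NAA60, IGF2R and RB1 in the second. With pooled controls TRAPPC9 turned in the SLC30A10 knockout (-0.0145, adjusted p = 0.84). The cause of these turns was not tested. COPG2 in the SLC30A10 knockout and PLAGL1 in the second were no longer called with pooled controls (log2 0.04 and -0.36).

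Replicate numbers recur across groups, but same-numbered libraries deviated together only weakly (mean r -0.04, 0.06 and 0.03 for the SLC30A10, second and control comparisons). With 4 libraries a group, these values cannot settle whether the numbers pair the libraries. With a replicate block the counts were 15, 7, 12 and 11. A library correlated best with its own number for 0, 1 and 3 of the 4 numbers in these comparisons, so not for every one. Counts near the floor limit IGF2, MKRN3, MEG3, RTL1 and NNAT.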
